A study of Mus musculus with 100 samples.

Results

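Mouse chromosome 16 was followed through 424 of its 751 listed genes, those whose level was above 0 on the log2 scale of RPM (reads scaled to a common library size, not corrected for gene length) in at least 3 of 15 pluripotent libraries. These genes made up 3.07% of the 13829 genes that met the same rule on any chromosome, and 341 of them were above 0 in all 15 libraries. Just inside the rule, Ccdc80 had a third-highest value of 0.02, and just outside it Ifitm7 had -0.05; 160 of the 327 genes left out had no read in any pluripotent library. The chromosome was chosen by its measured values, the level and allelic balance of its genes in TX 2i ESCs and KSR-iPSCs in these same libraries, so everything that compares those cells is given as a description and supports nothing.

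The study asked how faithfully reprogrammed cells keep parental imprints, and sequenced polyadenylated RNA of biological triplicates from 6 groups. Female MEFs were fibroblasts from a female embryo of a reprogrammable BL6 mother and a CAST father. The mother was of the i4F strain, with doxycycline-inducible Oct4, Sox2, Klf4 and c-Myc. Induced pluripotent stem cells (iPSCs) of that cross were 4 lines, 2 female (F KSR2, F KSR4) and 2 male (M KSR3, M KSR5). Each was grown from 1 picked clone in knockout serum replacement (KSR) medium. The female lines came from female MEFs and the male lines from male MEFs, which are not among the 6 groups. TX 2i ESCs were the female embryonic stem cell line TX1072, also from a BL6 mother and a CAST father. They were kept in a medium with foetal bovine serum in place of KSR. It also held the GSK3 inhibitor CHIR99021 and the MEK inhibitor PD0325901, the pair called 2i. In every group the BL6 allele was therefore maternal and the CAST allele paternal. TX 2i ESCs were 1 line that differed from the KSR-iPSCs in origin, culture medium and, against the male lines, sex, and these differences cannot be told apart from one another. Only RNA was measured in these libraries, so the copy number of chromosome 16 was not measured in any of them. The paper counted chromosomes in metaphase spreads of all 4 KSR-iPSC lines and called their karyotypes normal. It names no such count for TX 2i ESCs.

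A chromosome present in an extra copy usually raises the RNA of most of its genes in proportion, while some genes are held closer to their normal level or pushed beyond it by their own regulation. Mouse chromosome 16 is a much studied case, because its distal part carries most orthologs of human chromosome 21, the chromosome gained in Down syndrome, and its proximal part carries the orthologs of human 22q11, the region deleted in DiGeorge syndrome. In an F1 cross, an extra copy of one parental chromosome would also move the allelic balance of its genes together, since reads over strain polymorphisms name their parent of origin.

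Promoter sequence is shown for 4 members with unlike differences between TX 2i ESCs and KSR-iPSCs. Sod1 lay close to 1.5-fold, Gsk3b and Ets2 lay above it, and Hmgn1 lay below it. The 150 bases before the RefSeq start nearest to the annotated gene start are printed 5′ to 3′ on the gene's own strand of GRCm38.p6, and capitals mark matches on either strand to the GC box GGGCGG or the CCAAT box CCAAT. The regions are chr16:90220612-90220761 (plus strand) for Sod1, chr16:38088851-38089000 (plus) for Gsk3b, chr16:95702257-95702406 (plus) for Ets2 and chr16:96127726-96127875 (minus) for Hmgn1. The RefSeq start used for Ets2 lies inside the gene span of the deposited table, which begins at 95702075, so its window lies within that span.
Sod1: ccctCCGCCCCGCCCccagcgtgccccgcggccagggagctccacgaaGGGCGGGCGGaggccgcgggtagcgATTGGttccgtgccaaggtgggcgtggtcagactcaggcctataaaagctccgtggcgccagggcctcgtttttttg
Gsk3b: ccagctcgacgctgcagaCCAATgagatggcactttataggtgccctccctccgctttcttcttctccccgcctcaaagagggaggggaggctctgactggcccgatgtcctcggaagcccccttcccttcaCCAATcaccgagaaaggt
Ets2: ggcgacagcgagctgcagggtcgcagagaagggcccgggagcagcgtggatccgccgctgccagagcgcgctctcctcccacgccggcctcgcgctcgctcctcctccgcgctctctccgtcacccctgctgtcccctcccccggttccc
Hmgn1: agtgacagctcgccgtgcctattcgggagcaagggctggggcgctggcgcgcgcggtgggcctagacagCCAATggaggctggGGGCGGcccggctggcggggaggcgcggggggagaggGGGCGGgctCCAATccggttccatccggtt
Sod1 held 4 GC box matches, in 2 overlapping pairs, and 1 CCAAT box; Gsk3b held 2 CCAAT boxes, Hmgn1 held 2 of each, and Ets2 held neither. Of 32851 mouse promoters in the RefSeq table, 28.6% held a GC box and 24.5% a CCAAT box in the same window. The window of Ets2 had 18 CpG dinucleotides, those of Sod1 and Hmgn1 had 16 each and that of Gsk3b had 7, against a median of 4 over all promoters. Only 301 of the 424 members (71.0%) matched a promoter in the table, so no comparison of promoter content between groups of members was made.

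Each library held between 13183036 and 17921280 reads on genes, of which 17.7% to 19.9% could be assigned to a parent. The summed RPM of 15 fibroblast markers lay between 34961 and 48334 in MEFs, between 37.9 and 301 in KSR-iPSC libraries and between 50.1 and 75.9 in TX 2i ESCs, and every one of the 12 pluripotency markers had reads in every pluripotent library. One KSR-iPSC library, F KSR4 replicate 2, stood apart: its median log2 level relative to the other KSR-iPSC lines was -0.31 for the chromosome 16 genes and -0.30 for the genes of all other autosomes. Without this library the median difference given next was 0.54 in place of 0.55, and 242 members in place of 207 were called. Over all genes tested the calls also rose, to 4260 from 3272.

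Genes of chromosome 16 were higher in TX 2i ESCs than in KSR-iPSCs by a median of 0.55 on the log2 scale, 1.47-fold. Taken library by library, the median difference of the members from the KSR-iPSC lines was 0.51, 0.56 and 0.61 in the 3 TX 2i ESC libraries. Among the 12 KSR-iPSC libraries, each set against the other 3 lines, it ran from -0.31 through a median of 0.07 to 0.12. The TX 2i ESC libraries thus stood above all KSR-iPSC libraries without overlap. After the same median over all other autosomal genes was taken off in each library, TX 2i ESCs lay at 0.56 ± 0.02 (SD, n = 3) and KSR-iPSCs between -0.03 and 0.06. The members took 3.87% ± 0.01 of all reads in TX 2i ESCs (SD, n = 3) and 2.66% ± 0.15 in KSR-iPSCs (SD, n = 12), a ratio of 1.45. Since the libraries are bulk RNA, the same change in every cell and a larger one in some of the cells cannot be told apart.

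The allelic balance differed too. In TX 2i ESCs the maternal share of the allelic reads of the members was 35.0%, 34.8% and 35.0%, with 95% Wilson intervals from 34.5% to 35.3% that cover counting error only. In KSR-iPSCs the share ran from 51.8% through a median of 52.4% to 53.0%, and in the 3 MEF libraries it was 50.3%, 50.1% and 50.2%. All 3 TX 2i ESC libraries lay below all other libraries. Maternal reads of the chromosome amounted to 2164 ± 18.3 RPM in TX 2i ESCs (SD, n = 3) and 2319 ± 157 RPM in KSR-iPSCs (SD, n = 12), whereas paternal reads amounted to 4036 ± 42.3 and 2106 ± 137 RPM. Paternal reads were therefore 1.92 times and maternal reads 0.933 times their number in KSR-iPSCs. As plain arithmetic, counting every paternal read of the KSR-iPSCs 2 times would give a maternal share of 35.5% and a total of allelic reads higher by 0.56 on the log2 scale. The measured share was 34.9% and the summed allelic reads were higher by 0.49, 1.40 times those of KSR-iPSCs.

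**Figure D1:**
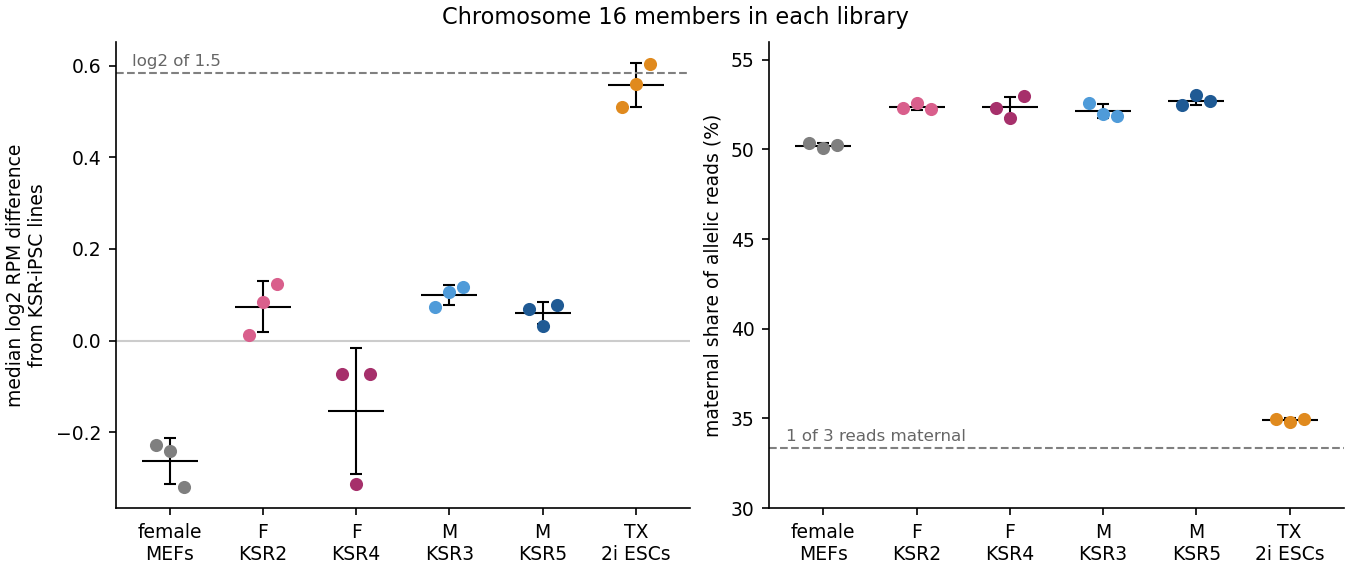
Median log2 RPM difference of the 424 chromosome 16 genes from the KSR-iPSC lines (left; each KSR-iPSC library against the other 3 lines) and maternal share of their allelic reads in percent (right, axis from 30 to 56), 1 point per library, with bars for the group mean and SD of 3 libraries. The 3 TX 2i ESC libraries sit at 0.51 to 0.61 and near 35%, apart from all other libraries; dashed lines mark log2 of 1.5 and a share of 33.3%.

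Among the 19 autosomes chromosome 16 had the highest median difference of level. Over the other 18 autosomes the median difference of TX 2i ESCs from KSR-iPSCs ran from -0.13 to 0.21, the highest value being that of chromosome 8, whose maternal share was 54.7% ± 2.44 in TX 2i ESCs (SD, n = 3) and 57.3% ± 7.47 in KSR-iPSCs (SD, n = 12). Chromosome 4 showed an allelic shift as large as that of chromosome 16, to a maternal share of 32.4% ± 4.88 in TX 2i ESCs from 49.9% ± 4.03 in KSR-iPSCs, but its median level differed by only 0.09. The chromosome 4 share also varied between the TX 2i ESC libraries, at 27.7%, 31.9% and 37.5%, while that of chromosome 16 stayed within 0.19 percentage points. The share of chromosome 6 was 49.3% ± 0.540 in TX 2i ESCs (SD, n = 3) and 63.4% ± 20.2 in KSR-iPSCs (SD, n = 12). TX 2i ESCs were thus lower by 14.1 percentage points while lying close to an even share. For this chromosome the paper reports maternal uniparental disomy, with both copies from the mother, in the F KSR2 line. The part of that line in the difference was not tested.

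**Figure D2:**
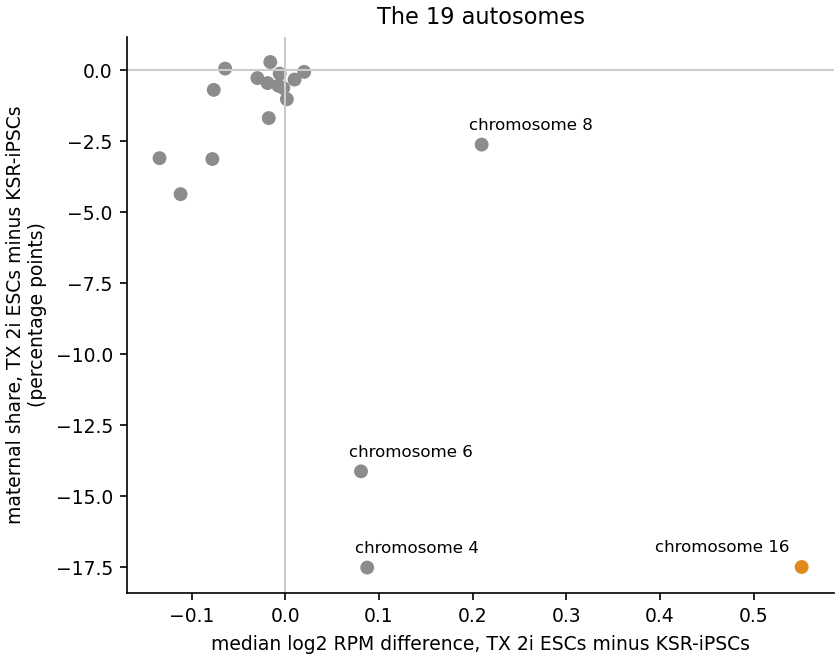
Each point is 1 of the 19 autosomes, with the median log2 RPM difference of its genes between TX 2i ESCs and KSR-iPSCs on the horizontal axis and the difference of the maternal share of allelic reads, in percentage points, on the vertical axis. Chromosome 16 lies alone at 0.55 and -17.5, chromosome 4 shares its vertical position at a level difference of 0.09, and chromosome 8 lies at 0.21.

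The shift of allelic balance ran through nearly every gene that could be read. At least 20 allelic reads were present in each of the 15 pluripotent libraries for 239 members. The maternal share was lower in TX 2i ESCs in 238 of them, the exception being 2610528E23Rik, and in 64.6% of genes read as deeply on the other autosomes. For 172 of the 239 all 3 TX 2i ESC libraries lay below all 12 KSR-iPSC libraries; on the other autosomes this held for 6.64% of 7077 genes read as deeply. The median gene went from 51.3% in KSR-iPSCs to 34.6% in TX 2i ESCs. In the median, maternal reads changed by -0.09 and paternal reads by 0.96 on the log2 scale, and the ratio of paternal to maternal reads was 2.02 times that in KSR-iPSCs, within 0.5 of a log2 shift of 1 for 221 genes. On the other autosomes the median shift of that ratio was 0.10, and 14.2% of genes lay in the same window. The ratio shift was not particular to chromosome 16: on chromosome 4 the median ratio was 2.19 times that in KSR-iPSCs, with 67.5% of 517 genes in the window.

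**Figure D3:**
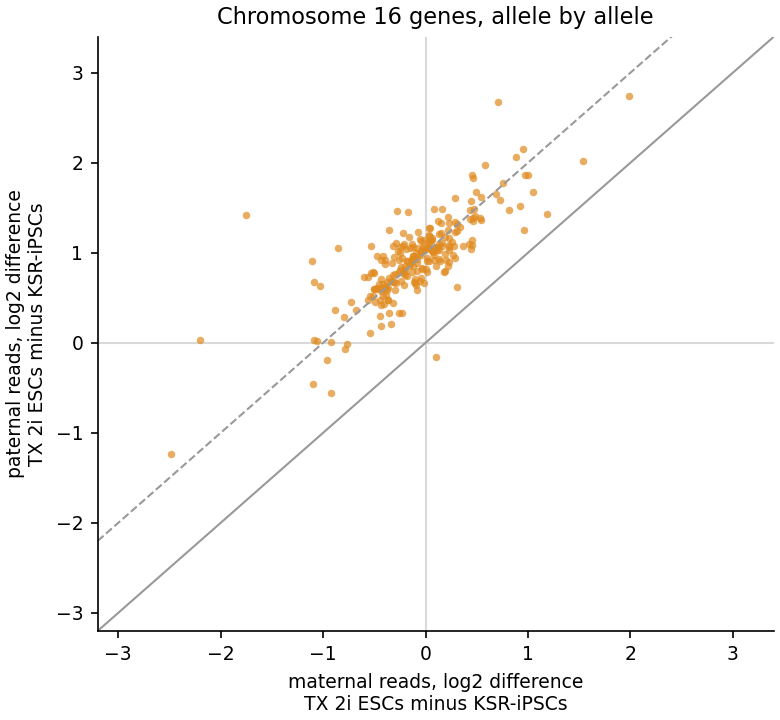
Difference of maternal (horizontal) and paternal (vertical) RPM between TX 2i ESCs and KSR-iPSCs on the log2 scale, with 0.5 read added, 1 point for each of 238 chromosome 16 genes; Ppp1r2, at -5.88 and 1.71, lies outside the axes. The cloud follows the dashed line, 1 log2 unit of paternal excess, and not the solid line of equal change.

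Across the 239 genes the share in TX 2i ESCs followed that in KSR-iPSCs with a Pearson r of 0.87 and a Spearman rho of 0.79, a description over genes that share libraries and strain polymorphisms. Counting the paternal reads of each gene 2 times gives a share computed from KSR-iPSCs alone. Of 239 genes 189 (79.1%) lay within 5 percentage points of that value, with a median gap of -0.35. Halving the maternal reads would give the same value, so the share alone cannot tell the 2 apart. Dppa2, which encodes a DNA-binding factor of early embryonic genes, went from 85.6% ± 2.15 to 76.4% ± 1.98. Ranbp1, a regulator of nuclear transport, went from 72.1% ± 2.91 to 54.7% ± 2.19, and the ribosomal protein gene Rpl35a from 69.0% ± 3.64 to 53.5% ± 1.84 (KSR-iPSCs SD, n = 12; TX 2i ESCs SD, n = 3). All 3 stayed mostly maternal while their balance moved toward the father.

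Some genes left this pattern. Ppp1r2 (chromosome 16, 31251537 to 31275277, minus strand), which encodes an inhibitor of protein phosphatase 1, had no maternal read among 546 allelic reads in TX 2i ESCs, which allows a share of up to 0.549%, against 34.5% ± 4.03 in KSR-iPSCs. Hspbap1 (35770386 to 35828446, plus strand), named for its product's binding to small heat shock proteins, fell to 11.2% ± 1.34 from 53.2% ± 3.79. Their total levels were higher in TX 2i ESCs, by 0.91 (SE 0.14) and 0.71 (SE 0.20), and their paternal reads by 1.71 and 1.42 log2 units. Fam43a and Dlg1, neighbors of Ppp1r2 on either side, had shares of 31.6% and 34.3% in TX 2i ESCs, and Dirc2 next to Hspbap1 had 35.3%. On the other side of Hspbap1, Parp14, an antiviral ADP-ribosyltransferase gene, had 4.90% ± 2.68, down from 22.7% ± 9.44. Next in the size of the fall were Dppa4 (57.6% to 28.6%), the cation-transporting ATPase gene Atp13a3 (55.2% to 28.7%) and the HMG-box gene Bbx (53.8% to 27.6%).

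At the other end, 2610528E23Rik had 57.1% ± 5.95 in TX 2i ESCs and 52.6% ± 6.45 in KSR-iPSCs, and its total level differed by -0.01 (SE 0.19). The junctional adhesion gene Jam2 went from 40.1% ± 6.24 to 36.1% ± 0.794, the integrin gene Itgb5 from 67.3% ± 6.14 to 62.6% ± 8.27 and Tbccd1 from 49.4% ± 5.57 to 43.9% ± 3.19. The oligodendrocyte lineage factor Olig1 was read almost only from the maternal allele, at 99.3% ± 1.70 and 94.9% ± 3.48. So close to 100% its fall was small in percentage points, but its ratio of paternal to maternal reads was higher by 1.97 on the log2 scale. Its neighbor Olig2 gave 191 allelic reads in TX 2i ESCs, all of them maternal, as in KSR-iPSCs.

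**Figure D4:**
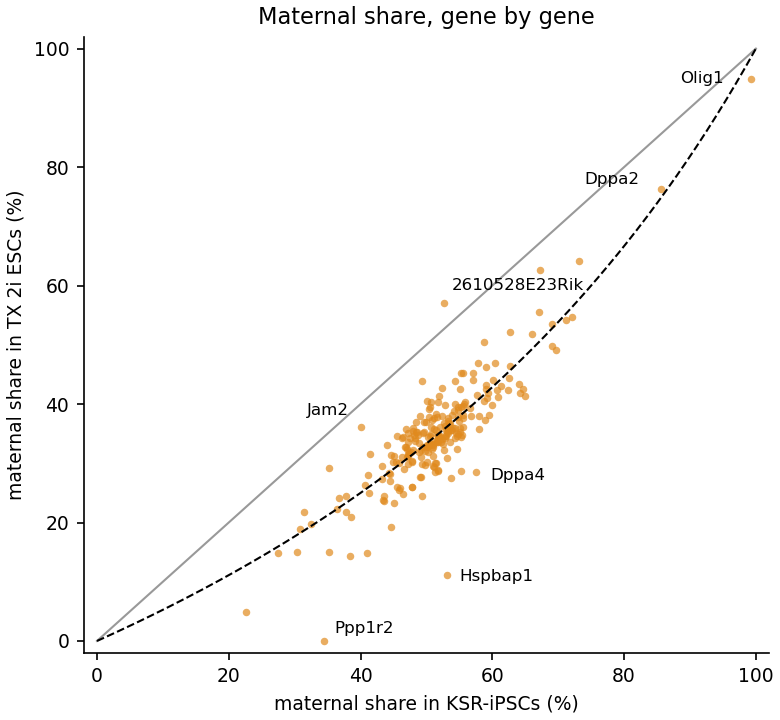
Maternal share of allelic reads in KSR-iPSCs (horizontal, mean of 12 libraries) and TX 2i ESCs (vertical, mean of 3 libraries), both in percent, for the 239 chromosome 16 genes with at least 20 allelic reads in every pluripotent library. The solid line marks equal shares and the dashed curve the share after counting paternal reads 2 times. Halving maternal reads would give the same curve. Of the genes, 189 lie within 5 percentage points of the curve, and Ppp1r2, Hspbap1 and 2610528E23Rik lie far from it.

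The difference was present over the whole assayed length of the chromosome, from 3730510 to 98010000 on GRCm38. In 10 windows of 10 Mb each, which held 8 to 102 members, the median level difference lay between 0.39 and 0.63, and the maternal share was 25.5% to 37.0% in TX 2i ESCs and 40.0% to 56.5% in KSR-iPSCs. The window from 70 to 80 Mb, with 9 members, had the lowest share in both cell types. The level difference of single genes did not track their position (Pearson r = -0.10 over 424 members, a description across genes).

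Single genes spread widely around the common shift. Of 424 members 353 were higher and 71 lower in TX 2i ESCs, with an interquartile range from 0.24 to 0.85. In limma's test (adjusted p under 0.05 over all 13829 genes) 192 members, 45.3%, were called higher and 15, 3.54%, lower; among all genes tested 12.5% were called higher and 11.2% lower. All TX 2i ESC libraries lay above all KSR-iPSC libraries for 135 members and below them for 6, against 6.49% and 4.14% of all genes. A gene could meet the rule through the TX 2i ESC libraries alone, and such a gene could only come out higher there. The SD of the differences over genes was 0.974 for the members and 0.962 for the other autosomes, so the members were displaced as a group without a wider spread.

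Set against 0 and log2 of 1.5 (0.58), the 95% intervals sorted the members into classes. The interval held log2 of 1.5 but not 0 for 175 members (41.3%, against 11.6% of the other autosomal genes). It lay above log2 of 1.5 for 66 (15.6% against 4.06%), held 0 but not log2 of 1.5 for 53 (12.5% against 40.9%), held both for 107 (25.2% against 25.9%) and lay below 0 for 23 (5.42% against 17.3%). None of these members lay between the 2 values, and an interval that holds both cannot place a gene. The allelic share moved alike in the classes: the median in TX 2i ESCs was 34.5% for the 136 deeply read genes near 1.5-fold, 34.6% for the 25 above it and 36.1% for the 32 that held 0 but not log2 of 1.5. In that last class maternal reads differed by -0.50 and paternal reads by 0.45 in the median, so the total was near 0 while the balance was not. The 115 deeply read members that were not called had a median share of 34.7%, lower than in KSR-iPSCs in 114 of them.

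Taking a common shift off the TX 2i ESC values moves calls from higher toward lower by construction, so the counts that follow are a description. When the TX 2i ESC values of chromosome 16 were lowered by log2 of 1.5 and the fit repeated, 44 of the 192 higher calls were kept and 148 were no longer called. The lower calls grew from 15 to 46, of which 15 were the earlier ones and 31 were new. Over all 13829 genes tested that fit called 1564 higher and 1556 lower, so the 424 members lay near the common share. Lowering by the members' own median instead kept 53 higher calls and gave 38 lower ones, beside 1573 and 1548 over all genes tested.

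Orthologs of human chromosome 21 were represented by 64 members of 86 listed, with a median difference of 0.47 against 0.55 for all members. Of these limma called 23 higher, 4 lower and 37 neither (33 and 4 at an unadjusted p under 0.05, 25 and 3 by limma-voom on recovered reads). For this and the lists that follow, the shares called were 45.3% higher and 3.54% lower among all members and 12.5% and 11.2% among all genes tested. Sod1, the cytosolic superoxide dismutase (90220742 to 90226322, plus strand), had log2 RPM values of 8.70, 8.87 and 9.16 in TX 2i ESCs and of 8.01 to 8.92 in KSR-iPSCs, with a median of 8.33. The groups overlapped, the difference was 0.57 (SE 0.16, 1.49-fold), and the maternal share went from 60.9% ± 2.20 to 41.1% ± 1.26. Gabpa, an ETS-family regulator of mitochondrial genes, stood at 7.83, 7.95 and 7.92 against at most 7.52 in KSR-iPSCs, a difference of 0.64 (SE 0.15). Rcan1, a calcineurin inhibitor, differed by 0.80 (SE 0.22). Dyrk1a, a kinase studied in Down syndrome, differed by only 0.19 (SE 0.17), yet its share went from 56.7% ± 6.85 to 37.9% ± 2.58. The nucleosome-binding gene Hmgn1 behaved the same way, with a difference of 0.19 (95% interval -0.11 to 0.48) and a share that went from 51.4% ± 1.69 to 35.6% ± 0.736.

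Other orthologs of human chromosome 21 moved much further or in the opposite direction. Ets2, an ETS-family transcription factor, had 6.44, 6.37 and 6.59 in TX 2i ESCs and between 3.57 and 4.84 in KSR-iPSCs, without overlap and with a difference of 2.22 (SE 0.21). App, the amyloid precursor protein gene, lay at 4.18, 5.17 and 4.64 within a KSR-iPSC range of 3.60 to 6.58, a difference of -0.42 (SE 0.38), and the ribosome biogenesis gene Urb1 differed by 0.00 (SE 0.18). The share of App went from 59.3% ± 8.45 to 41.1% ± 6.75 and that of Urb1 from 48.9% ± 6.47 to 33.4% ± 6.48. Runx1, a master regulator of blood formation, was lower by 2.47 log2 units (SE 0.48), at -1.83, 0.02 and -2.39 against -1.05 to 3.68, and the chloride channel family gene Clic6 by 3.08 (SE 0.52). These 2 genes overlapped between the groups and had 2 and 3 allelic reads in TX 2i ESCs, too few for a share. Against the female lines only, Runx1 differed by -1.26 and was not called (limma adjusted p = 0.107).

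Orthologs of human 22q11, in the proximal part, were 31 members of 35 listed; limma called 21 higher, 1 lower and 9 neither (23 and 1 at an unadjusted p under 0.05, 21 and 1 by limma-voom), with a median difference of 0.72. The mitochondrial citrate carrier gene Slc25a1 differed by 1.58 (SE 0.20) and Klhl22, an adaptor of a ubiquitin ligase, by 1.73 (SE 0.14), both without overlap. Klhl22 reached a maternal share of 50.5% ± 1.57 from 58.7% ± 6.05, less of a fall than most members. Nearer to the common shift lay the histone chaperone gene Hira at 0.58 (SE 0.16), the adaptor gene Crkl at 0.63 (SE 0.22) and the replication factor gene Cdc45 at 0.77 (SE 0.16). Dgcr8, a subunit of the microRNA microprocessor, differed by 0.32 (SE 0.22), with an interval from -0.15 to 0.79 that holds both 0 and log2 of 1.5.

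Among the 16 pluripotency and 2i pathway genes limma called 6 higher, 1 lower and 9 neither (9 and 1 at an unadjusted p under 0.05, 6 and 0 by limma-voom), with a median of 0.57. Gsk3b, the kinase that CHIR99021 blocks, had 6.72, 6.54 and 6.95 in TX 2i ESCs and 5.38 to 6.42 in KSR-iPSCs, a difference of 0.96 (SE 0.14). Etv5, an ETS factor downstream of growth factor signals, differed by 0.55 (SE 0.22) with overlapping groups, and its share went from 51.3% ± 2.74 to 28.6% ± 1.30.

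The neighbors Dppa4, Dppa2 and Morc1, between 48283735 and 48630905, are expressed in the early embryo and germ line. Morc1, which acts in transposon silencing, had 7.70, 7.55 and 7.93 in TX 2i ESCs against 6.28 to 7.47, a difference of 0.62 (SE 0.17). Dppa4, the partner of Dppa2, differed by 0.05 (SE 0.18), with maternal reads lower by 1.09 and paternal reads higher by 0.68 log2 units. Dppa2 varied among the TX 2i ESC libraries, at 7.33, 6.33 and 8.11, and its difference of 0.43 (SE 0.48) could not be placed. Igf2bp2, an RNA-binding protein gene, differed by 1.25 (SE 0.21), whereas the histone acetyltransferase gene Crebbp differed by -0.12 (SE 0.24).

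Genes of protein complexes and core machinery were 27 members. Of these limma called 17 higher and 0 lower (21 and 0 at an unadjusted p under 0.05, 17 and 0 by limma-voom), with a median of 0.54, and in 24 of 24 with enough reads the maternal share was lower. The replicative helicase subunit Mcm4 differed by 0.88 (SE 0.15), the proteasome subunit Psmd2 by 0.89 (SE 0.13) and the chaperonin subunit Cct8 by 0.83 (SE 0.17), all without overlap. The ribosomal protein gene Rpl24 differed by 0.59 (SE 0.15). Eif2b5, the catalytic subunit of the exchange factor of translation initiation, stood out at 9.70, 9.69 and 9.74 against 7.48 to 8.36, a difference of 1.80 (SE 0.14). Polr2h, an RNA polymerase subunit, differed by 0.16 (SE 0.19) and the SUMO protease gene Senp2 by -0.26 (SE 0.15).

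The members with the most allelic reads show the allelic shift at its best precision. Rsl1d1, a nucleolar protein gene, had 8425 allelic reads in TX 2i ESCs and a share of 35.5% ± 0.785, against 53.3% ± 1.57 in KSR-iPSCs. The translation initiation scaffold gene Eif4g1 went from 48.9% ± 1.86 to 32.0% ± 1.43 and Gart, an enzyme of purine synthesis, from 57.9% ± 2.20 to 37.99% ± 1.64. The RNA polymerase I factor Rrn3 went from 62.6% ± 1.96 to 44.5% ± 2.16, the transferrin receptor gene Tfrc from 51.5% ± 2.62 to 38.4% ± 1.11 and the ATP synthase gene Atp5o from 51.4% ± 2.18 to 33.8% ± 1.31. The level differences of the genes just named lay between 0.36 and 0.55. Among them only Atp5o was called, and this call was lost under 13 of 27 alternatives. Etv5, Morc1, Hmgn1 and Sod1, described above, were also among the members with the most allelic reads. Of these, Morc1 (0.62) and Sod1 (0.57) were called, and Etv5 (0.55) and Hmgn1 (0.19) were not.

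Of the interferon and antiviral genes 10 of 11 were members and 0 were called in limma, while 4 were higher at an unadjusted p under 0.05 and 1 was called higher by limma-voom on recovered reads; the median was 0.51. The interferon receptor genes Ifnar1 and Ifnar2 differed by 0.52 (SE 0.19) and 0.51 (SE 0.24) and Ifngr2 by 0.07 (SE 0.38). The maternal share of Ifnar1 went from 51.3% ± 8.13 to 30.1% ± 6.02. Among 11 matrix and fibroblast genes limma called 4 higher, 1 lower and 6 neither (4 and 3 at an unadjusted p under 0.05, 4 and 2 by limma-voom), and their median of -0.19 was below 0. Fstl1, a secreted glycoprotein gene, differed by 1.29 (SE 0.26) and the focal adhesion gene Lpp by -0.74 (SE 0.22). Col8a1, a collagen gene without a read in any TX 2i ESC library, ranged from -4.22 to 2.62 in KSR-iPSCs. The fibroblast markers outside chromosome 16 were also highest in a KSR-iPSC library, M KSR5 replicate 3, at 0.654% of the MEF level in the median. Replicates 1 and 2 of that line had 0.0287% and 0.0552%, below the highest TX 2i ESC library at 0.0641%, so the groups overlapped. The part of such markers in the matrix genes was not tested.

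**Figure D5:**
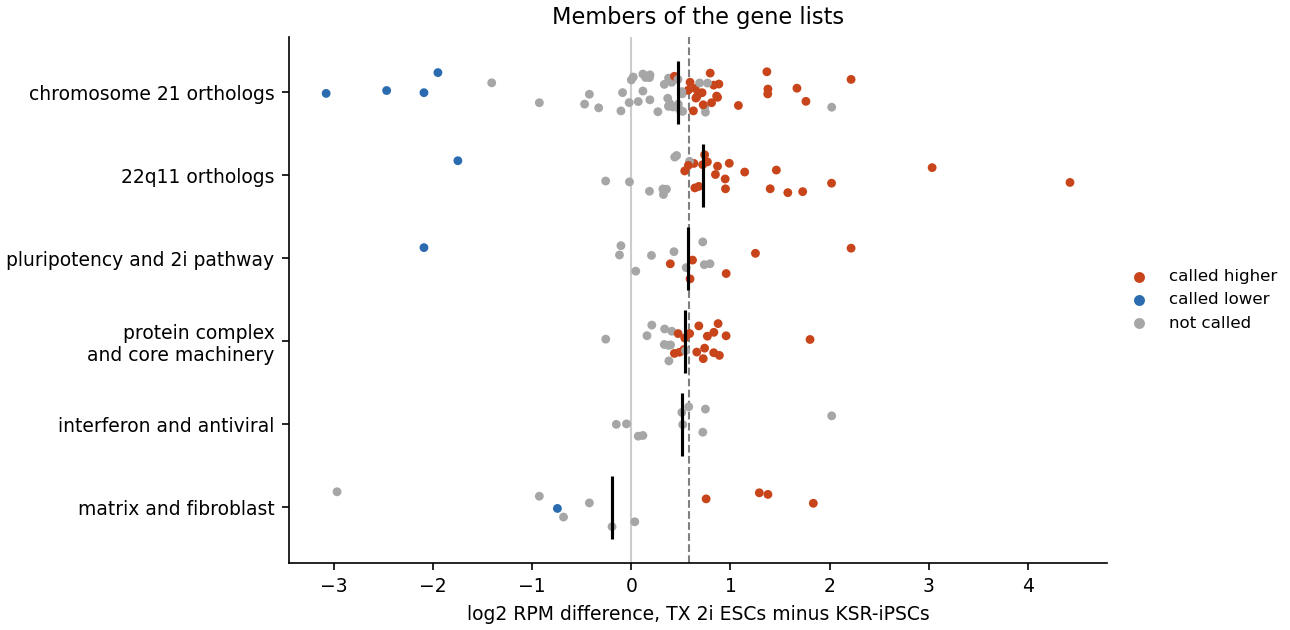
Log2 RPM difference between TX 2i ESCs and KSR-iPSCs of the members of 6 gene lists, 1 point per gene, colored by limma's call, with vertical bars for the list medians and a dashed line at log2 of 1.5. The medians of 5 lists lie between 0.47 and 0.72, and that of the matrix and fibroblast genes at -0.19; a gene may belong to more than 1 list.

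Among members called without overlap the 5 largest increases were those of genes low or absent in KSR-iPSCs. Of these, Casr, Gsc2 and Cyp2ab1 were above 0 in no KSR-iPSC library and met the rule for members only through TX 2i ESCs. Their higher level without overlap was thus fixed by the rule and is a description. Casr, the calcium-sensing receptor gene, had 145, 184 and 104 reads in TX 2i ESCs and 0 to 9 in KSR-iPSCs, with a difference of 6.48 (SE 0.64). The gene 2510009E07Rik differed by 4.77 (SE 0.31), the homeobox gene Gsc2 by 4.42 (SE 0.59), the cytochrome P450 gene Cyp2ab1 by 3.98 (SE 0.53) and the palmitoyltransferase family gene Zdhhc23 by 3.42 (SE 0.71). These sizes depend on the floor at low reads: with log2 of RPM plus 1 they were 3.04 for Casr, 4.02 for 2510009E07Rik, 2.12 for Gsc2, 1.89 for Cyp2ab1 and 1.81 for Zdhhc23. The share of 2510009E07Rik in TX 2i ESCs was 33.3% ± 5.74. The 5 largest decreases called without overlap were those of Slc15a2, a peptide transporter gene with 0, 0 and 1 reads against 3 to 169 (-4.52, SE 0.64), the collagen-modifying enzyme gene Leprel1 (-3.06, SE 0.57) and Abat, which breaks down GABA (-1.96, SE 0.35). Cyyr1 differed by -1.95 (SE 0.37) and Cd80, a costimulatory ligand of T cells, by -1.64 (SE 0.39). With log2 of RPM plus 1 Slc15a2 was at -1.43 and Leprel1 at -0.74.

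Comparisons without TX 2i ESCs gave no such shift of the chromosome. Between the female and the male KSR-iPSCs, with 6 libraries from 2 clonal lines for each sex, the median difference of the members was -0.12 and that of the other autosomes -0.13. Limma called 9 members (2.88% of all genes were called), 3 higher and 6 lower in the female lines. These p-values take the libraries of a line as separate replicates. An alternative chosen after seeing the data took 1 mean per line and set 2 lines against 2. There limma called 0 members and 4 of all 13829 genes. Of the 424 members 24 had an unadjusted p under 0.05 in limma, close to the share that this threshold alone lets through. Fetub, a plasma protease inhibitor gene, ran from 3.70 through 4.38 to 5.25 in the female and from 1.83 through 2.13 to 3.05 in the male libraries, a difference of 2.23 (SE 0.28, limma adjusted p = 0.000535). Kng2, a kininogen gene, differed by 2.61 (SE 0.40, limma adjusted p = 0.00261) and the phospholipase gene Pla1a by 1.64 (SE 0.29, limma adjusted p = 0.00682). In the male lines Slc15a2 was higher, at 0.35 through 1.78 to 3.22 against -2.60 through -1.70 to 0.73 with overlap (-3.27, SE 0.63, limma adjusted p = 0.0109). A gene could meet the rule for members through the libraries of 1 sex alone. Slc15a2 met it only through the male lines, so its higher male level is a description and its p supports nothing.

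Clic6 and Erg, the latter an ETS factor of endothelial cells, ran from 1.07 to 3.04 and from 1.63 to 2.27 in the male and from -1.86 to 1.02 and from -1.08 to 1.24 in the female libraries, without overlap. Their differences were -2.27 (SE 0.50, limma adjusted p = 0.0208) and -1.68 (SE 0.43, limma adjusted p = 0.0439). The gene 2610528E23Rik, without overlap too, differed by -0.71 (SE 0.18, limma adjusted p = 0.0471). Runx1 and the proline-degrading enzyme gene Prodh differed by -2.41 (SE 0.58, limma adjusted p = 0.0347) and -1.12 (SE 0.28, limma adjusted p = 0.0409) with overlap. Leaving out any 1 library of M KSR3 brought the count from 9 to 4, and that over all genes from 398 to between 191 and 205. Of the 9 calls those of Fetub, Kng2, Pla1a and Slc15a2 held under all alternatives in which the gene was tested except 1 mean per line, where their adjusted p in limma ran from 0.139 to 0.279.

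Between KSR-iPSCs and female MEFs limma called 317 members, 187 higher and 130 lower, where 72.9% of all genes were called (44.2% higher and 28.8% lower). The median difference was 0.22, against 0.32 for the other autosomes. The male lines came from male MEFs without RNA libraries, so for them this contrast also crosses sex. Members had to be above 0 in pluripotent libraries but not in MEFs, so a gene absent from MEFs could only come out higher in KSR-iPSCs, and higher values of such genes are a description. Dppa4 had no read in any MEF library and 5.93 to 7.37 in KSR-iPSCs, at least 9.64 log2 units higher as a ratio of mean RPM when 3 reads per MEF library are taken as the limit. Morc1 had 1, 0 and 0 reads in MEFs and Dppa2 3, 0 and 3. The largest decreases were those of the matrix genes Ccdc80, at 9.66, 9.52 and 9.44 in MEFs and -4.33 to 2.67 in KSR-iPSCs (-11.55, SE 1.15, limma adjusted p = 4.47e-08), and Col8a1 (-10.07, SE 1.09, limma adjusted p = 1.45e-07), and of the cell adhesion gene Alcam (-7.61, SE 0.72, limma adjusted p = 2.22e-08).

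The maternal share of the chromosome was slightly higher in KSR-iPSCs than in MEFs when allelic reads were summed, at 52.4% ± 0.397 (SD, n = 12) against 50.2% ± 0.138 (SD, n = 3; exact two-sided permutation test, p = 0.0044). Every KSR-iPSC library lay above every MEF library, and the p takes the 12 libraries of 4 lines as separate replicates. The median over genes with at least 5 allelic reads gave 51.2% in both (-0.0046 percentage points, exact permutation p = 0.945). With 3 against 3 libraries each line alone could reach no p below 0.1, and each gave 0.1. The share over all other autosomes also lay higher, at 53.7% ± 1.16 in KSR-iPSCs and 52.1% ± 0.116 in MEFs.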

How the data were processed

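RNA was sequenced by the authors as strand-specific polyA libraries. Per the submitters' processing notes, reads were trimmed with Trim Galore 0.6.1 and mapped to GRCm38 with HISAT2 2.1.0; the authors split reads by BL6 and CAST polymorphisms and counted them in SeqMonk. The deposited values are log2 RPM per gene, not corrected for length, in 4 columns per library (all, unassigned, genome 1 and genome 2 reads), with genes without reads held at 0.9 read. Whole reads came back from these values for 99.97% to 100% of genes within 0.05 read. Genome 1 was taken as maternal and genome 2 as paternal.

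All 13829 genes above 0 in at least 3 of 15 pluripotent libraries were fitted with limma 3.58.1 (R 4.3.3) with an intensity trend, with Benjamini-Hochberg adjustment. The contrast with TX 2i ESCs and that with MEFs used all 18 libraries and share the KSR-iPSC libraries; the female to male contrast used 12. Shares were taken from summed or per-gene reads (at least 5 a library), with exact permutation tests in Python 3.11.15. The differences of genes with few reads depend on the floor. Labels describe paired reads and the methods single ones; what was counted was not settled.

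The members and gene lists were chosen with earlier results of these data known. Named genes were members of 6 lists, the examples picked after their values were seen; the 5 largest increases and the 5 largest decreases called without overlap; the 10 with most allelic reads; the 5 largest and 5 smallest falls of share; and the 3 largest changes each way in the other contrasts. Alternatives covered the pseudocount, filters, voom, centring, a replicate block, single libraries left out, other line sets and, chosen after seeing the data, 1 mean per line. Libraries of methylation amplicons were not used here.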

Additional observations from a re-analysis of the deposited data

How the results depend on the processing

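In the contrast of TX 2i ESCs with KSR-iPSCs 207 members were called, and between 142 and 242 when single libraries were left out. The fewest were called without TX 2i ESC replicate 3 and the most without F KSR4 replicate 2. Over all genes tested the calls were 3272, and 2162 and 4260 without these libraries. The median difference of 0.55 lay between 0.54 and 0.59 with a library left out and at 0.62 against the female lines only. In the female to male contrast 9 members were called, beside 398 of all 13829 genes tested. With no filter on low values 5 of 751 members were called, beside 232 of 25965 genes. With values above 2 in all 15 libraries 3 of 295 members were called, beside 299 of 9014 genes. With all 18 libraries in the fit 30 members were called, beside 1521 genes. With 1 mean per line 0 members were called, beside 4 genes. That alternative was chosen after seeing the data and sets 2 lines against 2, so it has far fewer degrees of freedom. With a library left out 4 to 10 members were called, beside 191 to 522 genes. In the contrast with MEFs 317 calls became 285 to 331 with a library left out, while those over all genes went from 10086 to between 9162 and 10552. The higher maternal share of KSR-iPSCs over MEFs, 2.20 percentage points, was 2.12 to 2.26 with a library left out, -0.0046 as a median over genes with at least 5 allelic reads (exact permutation p = 0.945) and 0.083 with at least 20 (p = 0.831, exact permutation). The causes of the other changes were not tested.

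The correlation of deviations between same-numbered replicates ran from -0.25 to 0.41 over 45 pairs (median 0.04) and was over 0.1 in 14 of them, including all 3 of F KSR2 with TX 2i ESCs (0.28, 0.23 and 0.19), so the numbers were not taken to pair the samples throughout; 10 of 18 libraries correlated best with their own number. With the replicate block the counts were 216, 6 and 319 members for the contrasts with TX 2i ESCs, of female with male lines and with MEFs. Over all genes tested they were 3516, 316 and 10223.

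Of 38 named genes called in the contrast with TX 2i ESCs 11 were lost under some alternative, and none changed sign. Among those lost were Sod1 without TX 2i ESC replicate 2 or 3 and against the female lines only, Runx1 against the female lines only, and Crkl under 19 alternatives. Genes with few reads, such as Casr or Runx1, are limited by depth, and 107 members had intervals too wide to place.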
